A study of Homo sapiens with 238 samples.

Results

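Human chromosome 19 carries most of the ZNF genes whose products pair an array of C2H2 zinc fingers with a KRAB box, and these genes were read here across K562 lines edited at globin enhancers. Members were every protein-coding gene on chromosome 19 whose symbol is ZNF followed by a number, with a mean of at least 10 counts over the 62 RNA-seq libraries. Of 246 such annotated genes, 214 passed and are called the chromosome 19 ZNF genes below, out of 18164 genes of all kinds at that level. ZNF492 and ZNF506 lay just outside the threshold, with means of 8.52 and 9.03 counts, and ZNF284 and ZNF682 just inside it, with 10.3 and 13.6. K562 is a line from a chronic myelogenous leukemia with erythroid features, in which the α-globin genes are driven by the HS-40 enhancer and the β-type globin genes by a locus control region that includes the elements HS2 and HS3. The question of the study was what a G-quadruplex (G4), a folded structure of guanine-rich DNA, does in HS-40 and in HS2.

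The α series holds 43 libraries. The unedited line αWT has 8, αMut1 has 7 and αMut2 has 4, and both mutants are homozygous for base changes that remove the HS-40 G4. αRes1 and αRes2, with 8 libraries each, and αRes3 and αRes4, with 4 each, were made from αMut1 by placing the MYC promoter G4 in HS-40. The β series holds 19 libraries. βWT, βMut1, βMut2 and WT-HS3Δ have 4 each and βMut-HS3Δ has 3; βMut1 and βMut2 are homozygous for base changes in the HS2 G4, WT-HS3Δ is the unedited line with HS3 deleted and βMut-HS3Δ is βMut1 with HS3 deleted. Mutant and restored lines were each expanded from 1 sorted cell, so the edit and the clone cannot be told apart within any 1 line. Each HS3 deletion is likewise held by 1 line, so the deletion and the line cannot be told apart. Nothing in the labels says that the libraries of a line came from separate cultures, so p-values measure the spread between these libraries, which may be technical. These are bulk libraries, in which fewer cells transcribing a gene and less RNA per cell cannot be told apart.

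KRAB zinc finger proteins bind DNA through their fingers and, through the KRAB box, recruit KAP1 (TRIM28), which brings the histone methyltransferase SETDB1 and HP1 proteins and so sets down H3K9me3 heterochromatin, chiefly at retrotransposons. The genes arose by tandem duplication and lie in arrays along chromosome 19, and the arrays themselves carry H3K9me3 over their 3′ exons, where ZNF274 binds. Silencing of single ZNF genes by methylation of CG-rich promoters is well known in cancer cell lines. On this chromosome, 202 of the 214 genes lay in 8 arrays, defined here as stretches with gaps of at most 1 Mb between ZNF genes and named C1 to C8 from the short arm to the end of the long arm. C1 (2.72 Mb) held 13 of them, C2 (1.16 Mb) 20, C3 (4.46 Mb) 30, C4 (0.29 Mb) 5, C5 (1.64 Mb) 24, C6 (1.55 Mb) 23, C7 (2.01 Mb) 35 and C8 (3.0 Mb) 52, and 12 stood outside the arrays. C3 and C4 are made up almost wholly of ZNF genes, with 1 and 0 other measured genes between them, whereas C1 held 33 others, C6 19 and C8 16. The label KRAB-type was checked by sequence pattern only: each of the 214 coded for at least 1 finger (median 13, highest 36), and the KRAB A box pattern was found in 181, from 35 of 35 in C7 to 38 of 52 in C8. A KRAB box that departs from the pattern would be missed, so the remaining genes are not shown to lack one.

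Expression is given as CPM, counts scaled to library size, on 1 scaling over all libraries. A gene is called on in a line when every library of the line had at least 1 CPM, off when the line's mean was below 0.1 CPM, and switched in a series when at least 1 line was on and at least 1 off. These words describe levels and involve no test. The promoters of some of the switched genes, in C3, C4 and C8, are shown first, without ranking. Each is the 250 bases upstream of 1 RefSeq start (GRCh38.p14), 5′ to 3′ on the gene's own strand, with every CG dinucleotide in capitals. ZNF71 (chr19:56595052-56595301, plus strand), ZNF835 (chr19:56671758-56672007, minus strand) and ZNF549 (chr19:57527106-57527355, plus strand) lie in C8, ZNF302 (chr19:34677428-34677677, plus strand) in C4, and ZNF730 (chr19:23116775-23117024, plus strand) and ZNF724 (chr19:23250395-23250644, minus strand) in C3.
ZNF71: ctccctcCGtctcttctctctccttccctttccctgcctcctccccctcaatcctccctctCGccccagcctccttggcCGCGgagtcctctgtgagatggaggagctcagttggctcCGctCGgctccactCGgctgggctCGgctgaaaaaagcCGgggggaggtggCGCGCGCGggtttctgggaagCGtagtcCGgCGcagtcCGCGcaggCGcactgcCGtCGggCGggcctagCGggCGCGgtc
ZNF835: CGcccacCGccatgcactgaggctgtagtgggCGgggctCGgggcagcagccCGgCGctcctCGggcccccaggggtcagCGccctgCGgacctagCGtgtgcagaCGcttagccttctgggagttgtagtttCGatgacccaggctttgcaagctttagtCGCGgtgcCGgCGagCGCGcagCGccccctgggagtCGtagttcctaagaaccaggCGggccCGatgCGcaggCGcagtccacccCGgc
ZNF549: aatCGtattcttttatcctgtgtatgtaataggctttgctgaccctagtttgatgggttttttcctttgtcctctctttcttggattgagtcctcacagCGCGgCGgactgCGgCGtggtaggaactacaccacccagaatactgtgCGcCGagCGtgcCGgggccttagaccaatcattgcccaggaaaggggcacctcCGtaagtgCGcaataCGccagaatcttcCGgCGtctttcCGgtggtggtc
ZNF302: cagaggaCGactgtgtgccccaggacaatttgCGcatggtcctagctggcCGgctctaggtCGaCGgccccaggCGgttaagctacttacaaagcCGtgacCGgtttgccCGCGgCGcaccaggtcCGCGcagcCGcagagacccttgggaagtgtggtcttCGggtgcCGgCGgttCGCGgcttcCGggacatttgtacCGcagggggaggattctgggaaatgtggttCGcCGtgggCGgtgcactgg
ZNF730: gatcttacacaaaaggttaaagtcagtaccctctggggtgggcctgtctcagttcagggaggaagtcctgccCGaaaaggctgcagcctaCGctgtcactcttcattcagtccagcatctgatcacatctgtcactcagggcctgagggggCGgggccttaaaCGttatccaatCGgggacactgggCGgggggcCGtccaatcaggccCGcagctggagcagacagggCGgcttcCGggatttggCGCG
ZNF724: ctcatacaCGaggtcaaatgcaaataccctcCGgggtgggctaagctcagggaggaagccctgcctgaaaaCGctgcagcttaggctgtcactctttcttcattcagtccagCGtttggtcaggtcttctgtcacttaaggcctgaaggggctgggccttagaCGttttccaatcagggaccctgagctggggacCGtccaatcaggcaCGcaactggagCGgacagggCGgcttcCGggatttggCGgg

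Levels were counted over the whole gene, which can have other starts, and the ZNF730 window lies inside the gene as counted. The ZNF71 and ZNF835 windows each held 25 CG, that of ZNF302 24, that of ZNF549 16, that of ZNF730 12 and that of ZNF724 11. Among the 194 chromosome 19 ZNF genes with a promoter in the table the median was 16 CG, and 114 (58.8%) held 15 or more, against a median of 11 and 42.9% among all 35116 promoters of the same length. The 10 switched genes with an entry had a median of 16 CG (range 7 to 25), which is that of the ZNF genes as a whole. A G4 motif (4 runs of at least 3 G, or of at least 3 C for the other strand, with gaps of at most 7 bases) was present in 34 of the 194 windows (17.5%) and in 23.5% of all promoters, and in 1 of the 10 switched genes, ZNF578.

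Before the results, 2 facts about the libraries have to be given. Libraries numbered 1 to 4 and those numbered 5 and above of αMut1 and of αRes1 went against their labels. Over the 214 ZNF genes, the mean log2(CPM + 0.5) of each of 16 library sets, centred on the mean of all 62 libraries, was compared by Pearson's r across genes, which are not independent replicates. αMut1 5–7 was most like αRes1 1–4 (r = 0.74), and αMut1 1–4 was near 0 against αMut1 5–7 (r = 0.07), as was αRes1 1–4 against αRes1 5–8 (r = -0.03). αMut1 1–4 and αRes1 5–8 had r = 0.45. Across the other 17950 genes r was 0.47 between αMut1 5–7 and αRes1 1–4, 0.65 between αMut1 1–4 and αRes1 5–8, and 0.17 and -0.09 within the labels. The corresponding sets of αWT (r = 0.71 over the ZNF genes) and αRes2 (r = 0.70) were alike in profile, though not the same. Between the αWT sets 15.6% of all genes were called higher and 9.99% lower, beside 13.7% and 15.4% between the αMut1 sets. Counts over the ZNF genes in comparisons that use αMut1 or αRes1 are therefore given with the labels as they stand and also by set. Single genes are given by set where the call or the sign changed. The lists of known genes and of cofactors are given by the labels, with the differences inside αWT and αMut1 beside them. The second fact is that 16 libraries (αRes1 5–8, αRes2 5–8, αRes3 and αRes4) carry reads on the pseudoautosomal part of chromosome Y (4765 to 20653 counts) and the other 46 at most 1 count, and whether another reference was used for them is not given in the sources used here. For no ZNF gene did the 16 stand wholly apart from the other α libraries, a check that cannot show a smaller shift. All αRes3 and αRes4 libraries are among the 16 and no αMut1 library is. In comparisons of αRes3 or αRes4 with αMut1, the line and this difference therefore cannot be told apart. The same holds for αRes1 5–8 and αRes2 5–8 against sets outside the 16.

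**Figure D1:**
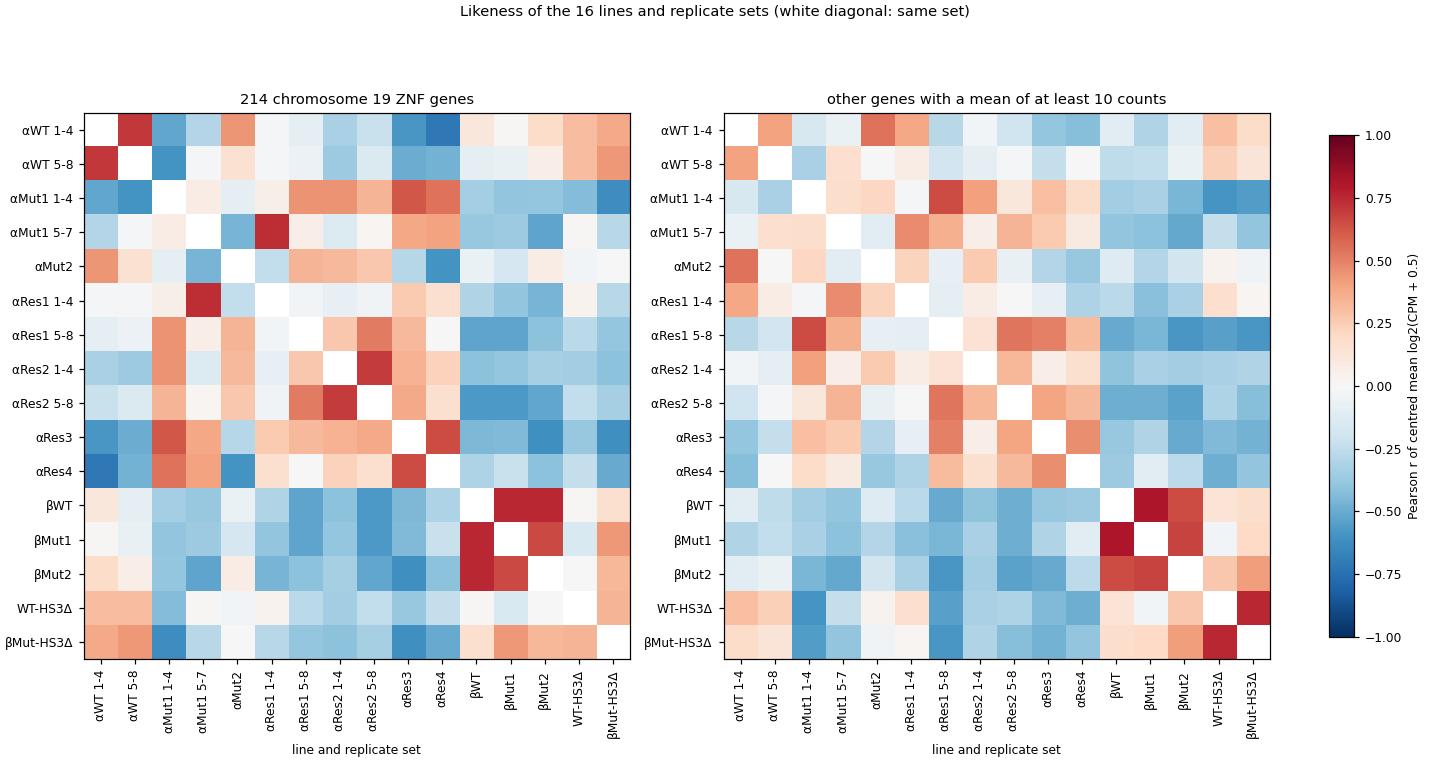
Pearson correlation between the 16 library sets over the 214 chromosome 19 ZNF genes, on the left, and over the 17950 other genes, on the right, from centred mean log2(CPM + 0.5); colour gives r from -1 to 1 and the diagonal is blank. αMut1 5–7 pairs with αRes1 1–4 (r = 0.74) rather than with αMut1 1–4 (r = 0.07), whereas both αWT sets pair with each other (r = 0.71 over the ZNF genes).

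Depth ran from 4270215 to 48671570 counts per library (median 27764236). The erythroid genes HBG1, HBG2, HBE1, TFRC, GATA1, TAL1 and KLF1 were detected in all 62 libraries, while of the markers of other cells ALB had a median of 0.421 CPM, CD3D of 10.8 CPM and EPCAM of 64.8 CPM. As a check of the edit, the summed level of the α-type globins HBA1, HBA2 and HBZ was 485 ± 81.8 CPM in αWT (SD, n = 8), 478 ± 85.3 in αMut1 (n = 7) and 92.1 ± 12.7 in αMut2 (n = 4), so of the 2 mutants it was lower only in αMut2. ZNF genes took a near-constant share of the RNA: their summed level ran from 3171 CPM in αMut2 to 3760 CPM in αRes4 over the 12 lines. Many sit against other genes, 138 of 214 overlapping another protein-coding or lncRNA gene, and near-identical fingers are shared among neighbours. Whether reads were assigned by strand or to several genes is not given in the sources used here, so values of overlapping genes may include a neighbour's reads.

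On and off states differed between lines for a small number of these genes. In the α series 5 of the 214 were on in at least 1 line and off in another (2.34%, against 1.27% of all 18164 genes), and in the β series 10 were (4.67%, against 1.36%). ZNF730, ZNF71, ZNF835 and ZNF549 switched in both, ZNF578 in the α series only, and ZNF208, ZNF728, ZNF724, ZNF302, ZNF875 and ZNF256 in the β series only, which makes 11 genes. Among the 797 other protein-coding genes of the chromosome 0.502% (α) and 0.878% (β) switched, and among the 226 ZNF genes of other chromosomes 1.77% and 1.33%. Dividing αWT, αMut1, αRes1 and αRes2 into their sets gave 6 switched genes (2.80%, against 2.13% of all genes), the added one being ZNF682. By sets 3.10% of the ZNF genes of other chromosomes and 1.25% of the other chromosome 19 genes switched. Switching by set in the α series was thus not particular to the chromosome 19 ZNF genes. Of the 11 genes, 4 lay in C3 (of 30), 4 in C8 (of 52) and 1 each in C4 (of 5), C5 (of 24) and C7 (of 35). None lay in C1 (of 13), C2 (of 20) or C6 (of 23). Numbers this small show no pattern by array, and the empty arrays depend on the limits. ZNF284, in C6, switched in the α series with off below 0.2 CPM, and ZNF878, in C2, in the β series with on at 0.5 CPM. The KRAB pattern was present in 10 of the 11, ZNF835 being without it.

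**Figure D2:**
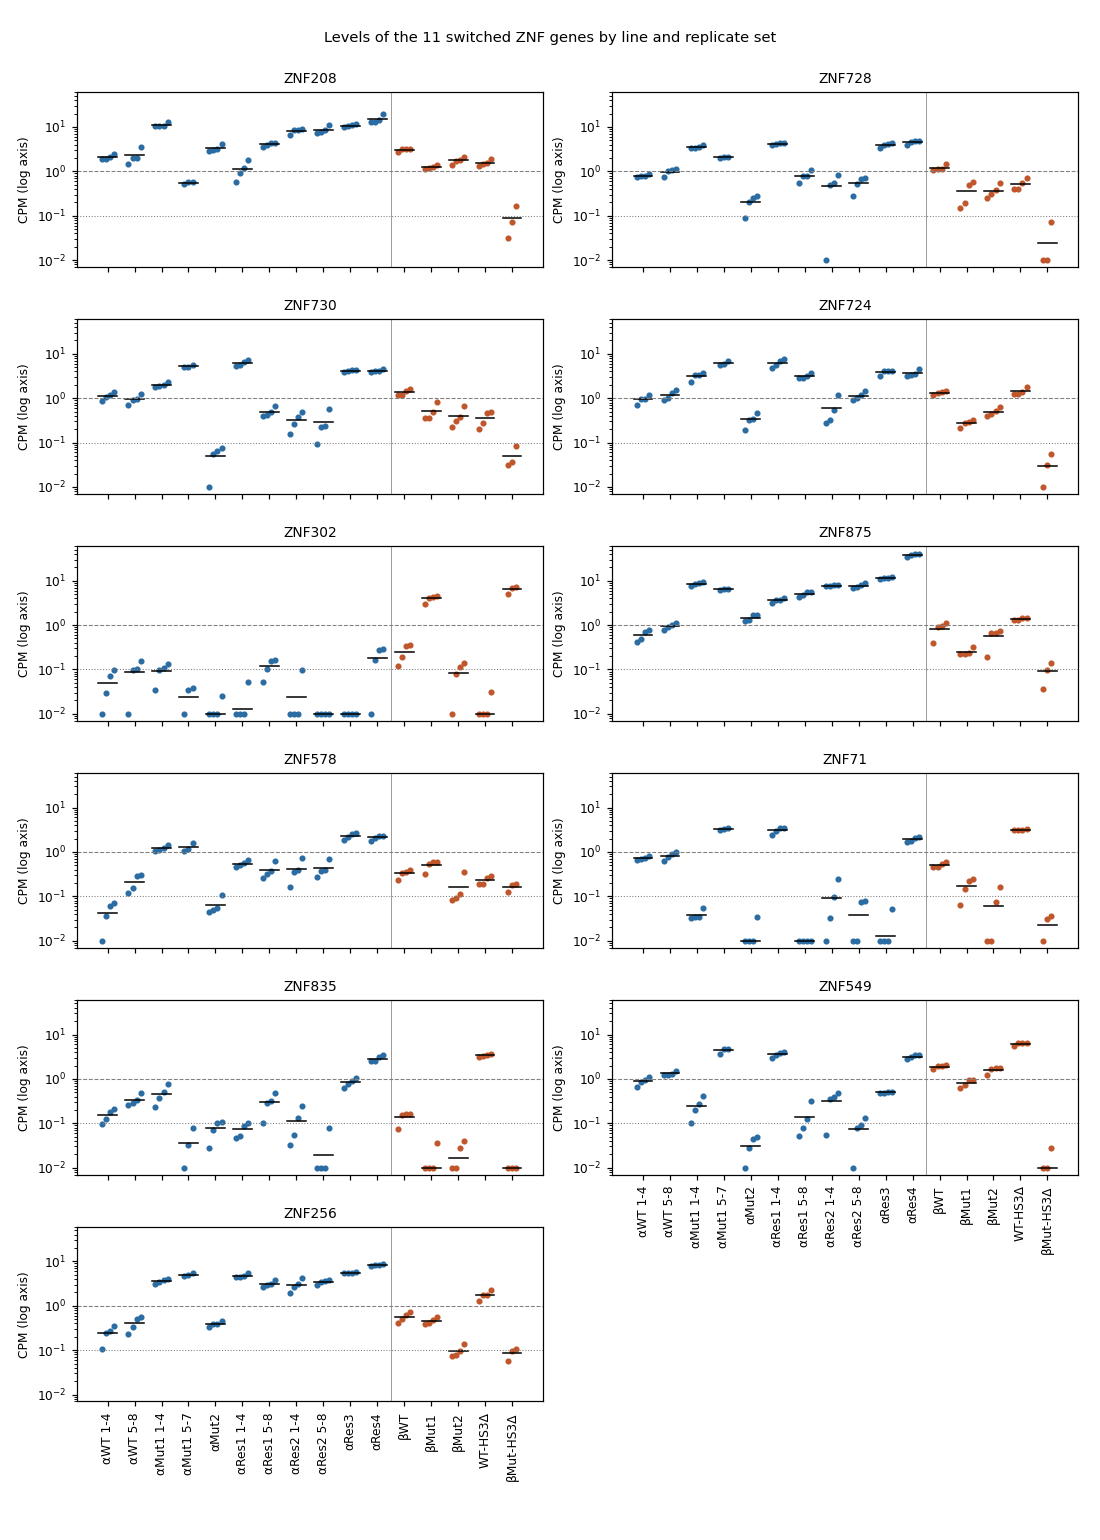
Level of each of the 11 switched genes in every library (CPM, log axis, zeros drawn at 0.01), grouped by line and replicate set; black bars are means, drawn no lower than 0.01, the dashed line is 1 CPM (on) and the dotted line 0.1 CPM (off). βMut-HS3Δ is on for ZNF302 alone and its ZNF549 points lie at or near 0, and αMut1 and αRes1 split into separate sets for ZNF71 and ZNF549.

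ZNF71, in C8, had the clearest on and off states. Its levels in αMut1 were 0.0537, 0.0344, 0.0332 and 0.0338 CPM in libraries 1 to 4 and 3.29, 3.14 and 3.4 CPM in libraries 5 to 7. In αRes1 they were 3.5, 2.94, 2.45 and 3.41 CPM in libraries 1 to 4 and 0 in each of libraries 5 to 8. The 2 labels thus each hold an on set and an off set, with no library between, and the mean of αMut1 as labelled (1.43 ± 1.73 CPM, SD, n = 7) describes neither. The difference between the αMut1 sets, 6.31 ± 0.33 on the log2 scale (SE, adjusted p = 3.44e-19, edgeR quasi-likelihood test with Benjamini-Hochberg adjustment), rests on 4 counts in the low set. Fold changes below are likewise given on the log2 scale with their SE. αMut2 gave 0, 0.0352, 0 and 0 CPM and αRes3 0, 0.0519, 0 and 0 CPM, and αRes4 was on, at 1.65, 2.14, 2.06 and 1.81 CPM. The unedited αWT was neither, at 0.637 CPM in its lowest library, 0.738 at the median and 0.996 in its highest.

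In the β series ZNF71 stood between the states in βWT, at 0.59, 0.459, 0.531 and 0.452 CPM. WT-HS3Δ was on, at 3.17, 3.14, 3.1 and 3.27 CPM, a rise of 2.68 ± 0.24 (log2, adjusted p = 1.00e-08). ZNF71 reached the count minimum of the β fit only through WT-HS3Δ (419 counts, against 57 in βWT). Its p-values in the β series are therefore not separate support for the states. βMut-HS3Δ was off, at 0.0317, 0.0357 and 0 CPM, and βMut1, from which it was made, was at 0.241, 0.219, 0.145 and 0.0655 CPM. Deletion of HS3 therefore went with opposite states in the 2 backgrounds, and the test of that difference gave -5.43 ± 0.82 (log2, adjusted p = 0.000106), a size that depends on the prior count of the fit because βMut-HS3Δ had 2 counts in all. ZNF71 and the lncRNA ZIM2-AS1 overlap on the same strand.

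ZNF549, further along C8, was high and low in many of the same sets as ZNF71, without sharing its state in all of them. It stood at 0.268, 0.413, 0.199 and 0.102 CPM in αMut1 1–4 and at 4.66, 4.76 and 3.72 CPM in αMut1 5–7 (difference 4.18 ± 0.25, log2, adjusted p = 4.47e-18), and in αRes1 at 2.98, 3.83, 4.03 and 3.45 CPM in libraries 1 to 4 and 0.124, 0.0787, 0.0518 and 0.31 CPM in 5 to 8. αMut2 was off (0.0278, 0, 0.0438 and 0.0498 CPM), and αWT ran from 0.652 through a median of 1.15 to 1.52 CPM. ZNF549 levels in βWT were 2.08, 1.9, 1.92 and 1.66 CPM, rising by 1.75 ± 0.13 in WT-HS3Δ (6.39, 6.44, 5.46 and 6.47 CPM, adjusted p = 8.01e-10) and standing at 0, 0 and 0.0278 CPM in βMut-HS3Δ. Unlike ZNF71, it stayed on in βMut2, at 1.79, 1.25, 1.79 and 1.65 CPM. Over the 16 sets ZNF549 was the gene most like ZNF71 of all 214 (r = 0.91). It overlaps the coding gene ZNF550 on the opposite strand.

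ZNF835, the neighbour of ZNF71, did not follow it in the α series. αMut1 1–4 had 0.376, 0.757, 0.499 and 0.237 CPM and αMut1 5–7 had 0.0319, 0 and 0.0782 CPM, the reverse order to ZNF71, and αRes4 was the only α line on (2.5, 2.47, 3.04 and 3.39 CPM, a rise of 3.34 ± 0.45 over αMut1, adjusted p = 1.30e-07). In the β series ZNF835 was on only in WT-HS3Δ (3.65, 3.11, 3.48 and 3.27 CPM), against 0.157, 0.164, 0.166 and 0.0754 CPM in βWT, a rise of 4.58 ± 0.24 (adjusted p = 1.84e-11). ZNF835 reached the count minimum of the β fit only through WT-HS3Δ (448 counts, against 16 in βWT). In the α fit it did so only through αRes4 (240 counts). The p-values of these rises are therefore not separate support for the states. In βMut1 a single library of 4 had any read (0.0363 CPM), and in βMut-HS3Δ none of 3 had.

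ZNF256, a gene first cloned from bone marrow, is the fourth switched gene of C8. WT-HS3Δ was on (1.75, 2.29, 1.26 and 1.75 CPM) against 0.511, 0.623, 0.729 and 0.414 CPM in βWT, a rise of 1.65 ± 0.20 (adjusted p = 4.56e-07), while βMut2 (0.138, 0.0935, 0.0778 and 0.0752 CPM) and βMut-HS3Δ (0.0951, 0.107 and 0.0557 CPM) were off. ZNF256 too reached the count minimum of the β fit only through WT-HS3Δ (232 counts, against 65 in βWT), with the same limit on its p-value. In the α series ZNF256 separated αMut1 and its derivatives from the other lines. αWT ran from 0.109 through a median of 0.305 to 0.546 CPM, αMut2 was at 0.39, 0.387, 0.329 and 0.448 CPM, and αMut1 ran from 3.06 through 4.03 to 5.48 CPM, a rise of 3.64 ± 0.19 (adjusted p = 2.05e-18) that libraries of both αMut1 sets showed. αRes4 was higher still, at 8.15, 8.51, 7.96 and 8.54 CPM.

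ZNF302, the first gene of C4, was a state of 1 lineage. βMut1 was on, at 3.05, 4.63, 4.4 and 4.06 CPM, as was βMut-HS3Δ, which was made from it, at 4.91, 7 and 7.27 CPM. Every other line was low: βWT had 0.118, 0.361, 0.332 and 0.188 CPM, βMut2 0.138, 0, 0.0778 and 0.113 CPM and WT-HS3Δ 0, 0.0314, 0 and 0 CPM, and none of the 43 α libraries exceeded 0.283 CPM. The rise in βMut1 was 3.99 ± 0.29 (log2, adjusted p = 8.56e-09), and the further rise in βMut-HS3Δ over βMut1 0.65 ± 0.20 (adjusted p = 0.00713). ZNF302 entered the gene list and the β fit only through βMut1 (448 counts) and βMut-HS3Δ (612 counts), against 29 counts in βWT. Its p-values are therefore not separate support for the states. ZNF302 was the only switched gene that was on in βMut-HS3Δ. It did not reach the count minimum of the α fit and was not tested there.

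C3 held ZNF728, ZNF730 and ZNF724, which lie side by side, and ZNF208, which lies before them. ZNF730 levels in βWT were 1.18, 1.18, 1.59 and 1.47 CPM and in βMut-HS3Δ 0.0317, 0.0357 and 0.0835 CPM. ZNF728 had 1.1, 1.44, 1.09 and 1.13 CPM in βWT and 0, 0.0715 and 0 CPM in βMut-HS3Δ. ZNF724 had 1.38, 1.44, 1.33 and 1.21 CPM in βWT and 0.0317, 0 and 0.0557 CPM in βMut-HS3Δ. The 3 genes were thus on in βWT and off in βMut-HS3Δ, and βMut1 lay between for each: ZNF724 fell by 2.20 ± 0.22 (adjusted p = 4.75e-07), ZNF728 by 1.74 ± 0.33 (adjusted p = 0.000597) and ZNF730 by 1.37 ± 0.28 (adjusted p = 0.00116) from βWT to βMut1. They parted in WT-HS3Δ, where ZNF724 kept the level of βWT (1.24, 1.76, 1.4 and 1.26 CPM) and ZNF730 was at 0.481, 0.283, 0.204 and 0.453 CPM.

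In the α series the same neighbours were lowest in αMut2. ZNF730 was off there (0.0557, 0, 0.0657 and 0.0747 CPM), and fell by 4.17 ± 0.80 from αWT (0.7 to 1.4 CPM, median 1.01, adjusted p = 0.000152). ZNF728 fell by 2.13 ± 0.47 (adjusted p = 0.000813) and ZNF724 by 1.69 ± 0.36 (adjusted p = 0.000548). ZNF730 was on in both αMut1 sets, at 1.76 to 2.31 CPM in 1–4 and 4.98 to 5.6 CPM in 5–7, and in αRes1 was at 5.44 to 7.15 CPM in 1–4 and 0.394 to 0.674 CPM in 5–8. Over the 16 sets ZNF728 and ZNF730 had r = 0.94, and ZNF730 and ZNF724 r = 0.87. The promoter table has no entry for ZNF728.

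ZNF208, whose product carries 36 fingers, the highest number here, was off only in βMut-HS3Δ (0.0317, 0.0715 and 0.167 CPM), against 1.25, 1.38, 1.13 and 1.21 CPM in βMut1 and 3.22, 3.18, 2.75 and 3.16 CPM in βWT. From βMut1 it fell by 3.68 ± 0.31 (log2, adjusted p = 3.54e-09). In αMut1 ZNF208 split by set in the opposite sense to ZNF71, with 10.4, 10.6, 12.6 and 10.3 CPM in libraries 1 to 4 and 0.574, 0.506 and 0.587 CPM in libraries 5 to 7 (difference -4.26 ± 0.25, adjusted p = 3.97e-18). As labelled, ZNF208 rose by 1.54 ± 0.44 from αWT to αMut1 (adjusted p = 0.00463), but αMut1 5–7 against αWT 5–8 gave -2.02 ± 0.29 (adjusted p = 1.56e-07), so the sign of the labelled result is that of libraries 1 to 4 alone.

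ZNF875, in C5, covered the widest range of the 11. αWT ran from 0.407 through a median of 0.774 to 1.12 CPM and αMut1 from 6.17 through 7.71 to 9.5 CPM, a rise of 3.31 ± 0.14 (adjusted p = 1.71e-21). αRes4 was at 34.8, 39.3, 39.3 and 38.8 CPM, a further rise of 2.32 ± 0.15 over αMut1 (adjusted p = 5.95e-16), and no library of another α line exceeded 12.4 CPM. In the β series ZNF875 was on in WT-HS3Δ (1.41, 1.32, 1.46 and 1.33 CPM) and off in βMut-HS3Δ (0.0951, 0.0357 and 0.139 CPM). ZNF578, in C7, was off in αMut2 (0.0557, 0.106, 0.0438 and 0.0498 CPM) and low in αWT (0 to 0.3 CPM, median 0.0966), and on in αMut1 (1.07 to 1.56 CPM, median 1.15), αRes3 (2.17, 2.6, 2.64 and 1.87 CPM) and αRes4 (1.79, 2.25, 2.34 and 2.11 CPM). Its rise in αMut1 was 3.19 ± 0.29 (adjusted p = 1.59e-11), and ZNF528, within 100 kb of it, was the gene most like it (r = 0.98).

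Taking the lines in turn, αRes4 had most genes on (207 of 214, with none off) and βMut-HS3Δ fewest (172 on, 14 off). Since on requires every library to reach 1 CPM, lines with 7 or 8 libraries meet it less readily than lines with 3 or 4. αMut1 and αRes1 also pool unlike sets, so the numbers on are not strictly comparable between lines. αWT had 173 on and 1 off, αMut1 189 and 1, αMut2 175 and 6, αRes1 178 and 1, αRes2 182 and 3, and αRes3 196 and 2. βWT had 187 on and 0 off, βMut1 183 and 1, βMut2 181 and 7, and WT-HS3Δ 187 and 2. The mean of αWT lay inside the range of the edited α lines for 133 of the 214 genes, below every edited line for 59 and above every one for 22. For βWT the numbers were 164, 21 and 29. Any 1 of several lines lies inside the range of the rest for many genes by number alone. The counts inside the range therefore say nothing particular about the unedited lines. The ratio of the highest to the lowest line mean, with 0.05 CPM added, was under 2 for 126 α-series and 120 β-series genes, with medians of 1.78 and 1.91 against 1.81 and 1.90 for all genes. It was over 10 for 20 genes over the α lines (9.35%, against 4.75% of all genes) and for 16 over the β lines (7.48%, against 3.98%).

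Each edited line was compared with its parent by the edgeR quasi-likelihood test, and a gene was called at an adjusted p under 0.05 with a log2 fold change beyond 0.5 in size. Of the 214 genes, 185 were called in at least 1 of the 13 comparisons made (86.4%, against 91% of all 18164 genes) and 29 in none. In αMut1 against αWT, 65 of 213 ZNF genes rose and 7 fell (30.5% and 3.29%), against 15.4% and 7.35% of all 18247 genes. The median of the ZNF genes was 0.18 on the log2 scale and that of all genes -0.03. The other genes of chromosome 19 (125 higher and 30 lower of 799) and the ZNF genes of other chromosomes (27 and 32 of 226) divided differently. Within sets, αMut1 1–4 against αWT 1–4 gave 68 higher and 18 lower, with 20.8% and 13.1% of all genes, and αMut1 5–7 against αWT 5–8 gave 63 and 9, with 14% and 10.5% of all genes.

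The genes that rose in αMut1 lay in C3 (16 of 30, 1 lower, median 0.62), C6 (14 of 23, 1 lower, median 0.87), C8 (15 of 52, 4 lower), C5 (9 of 24) and C2 (6 of 20), while C1 had 1 of 13. In C6, 12 neighbouring ZNF genes in a row from ZNF222 to ZNF229 rose, and in C3 8 in a row from ZNF93 to ZNF85. The 19 other genes measured inside C6 had 4 higher and a median of 0.20, and the 32 tested inside C1 had 13 higher. By set, C3 had 16 higher and 0 lower for 1–4 and 12 and 2 for 5–7, and C6 14 and 1 and then 13 and 0.

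The largest rises from αWT to αMut1 among genes whose libraries did not overlap were in C5. ZNF829 went from 0.0304 to 0.29 CPM (median 0.187) in αWT to 0.939 to 5.53 CPM (median 3.82) in αMut1, a rise of 4.20 ± 0.32 (adjusted p = 1.13e-13). ZNF568, whose mouse counterpart represses a placental Igf2 promoter, went from 0.0239 to 0.2 CPM (median 0.123) to 0.9 to 2.79 CPM (median 1.66), a rise of 3.84 ± 0.28 (adjusted p = 4.06e-14). The largest falls were smaller: ZNF587B, in C8, fell by 0.75 ± 0.18 (adjusted p = 0.000694) and ZNF296, at the end of C6, by 0.69 ± 0.12 (adjusted p = 5.06e-06), and against αWT 5–8 the αMut1 5–7 values of both, -0.28 and -0.33, were not called.

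αMut2 carries the same edit in a second clone and had 18 ZNF genes higher and 16 lower than αWT, against 6.62% and 9.43% of all genes. C2 had 6 higher and 0 lower of 20, C5 4 and 1, C3 4 and 6, C8 3 and 6 and C6 1 and 1. ZNF486, in C3, rose from 2.88 to 3.73 CPM (median 3.38) in αWT to 12.9 to 14 CPM (median 13.7) in αMut2, by 2.03 ± 0.14 (adjusted p = 1.08e-14). ZNF91, the C3 gene whose product silences SVA retrotransposons, rose by 1.42 ± 0.14 in αMut2 (adjusted p = 5.95e-10) and by 1.70 ± 0.13 in αMut1 (adjusted p = 4.22e-14). It stood at 6.13 ± 0.92 CPM in αWT (SD, n = 8), 16.4 ± 0.54 in αMut2 (n = 4) and 20.3 ± 5.68 in αMut1 (n = 7). ZNF549 and ZNF730, given above, were the largest falls.

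**Figure D3:**
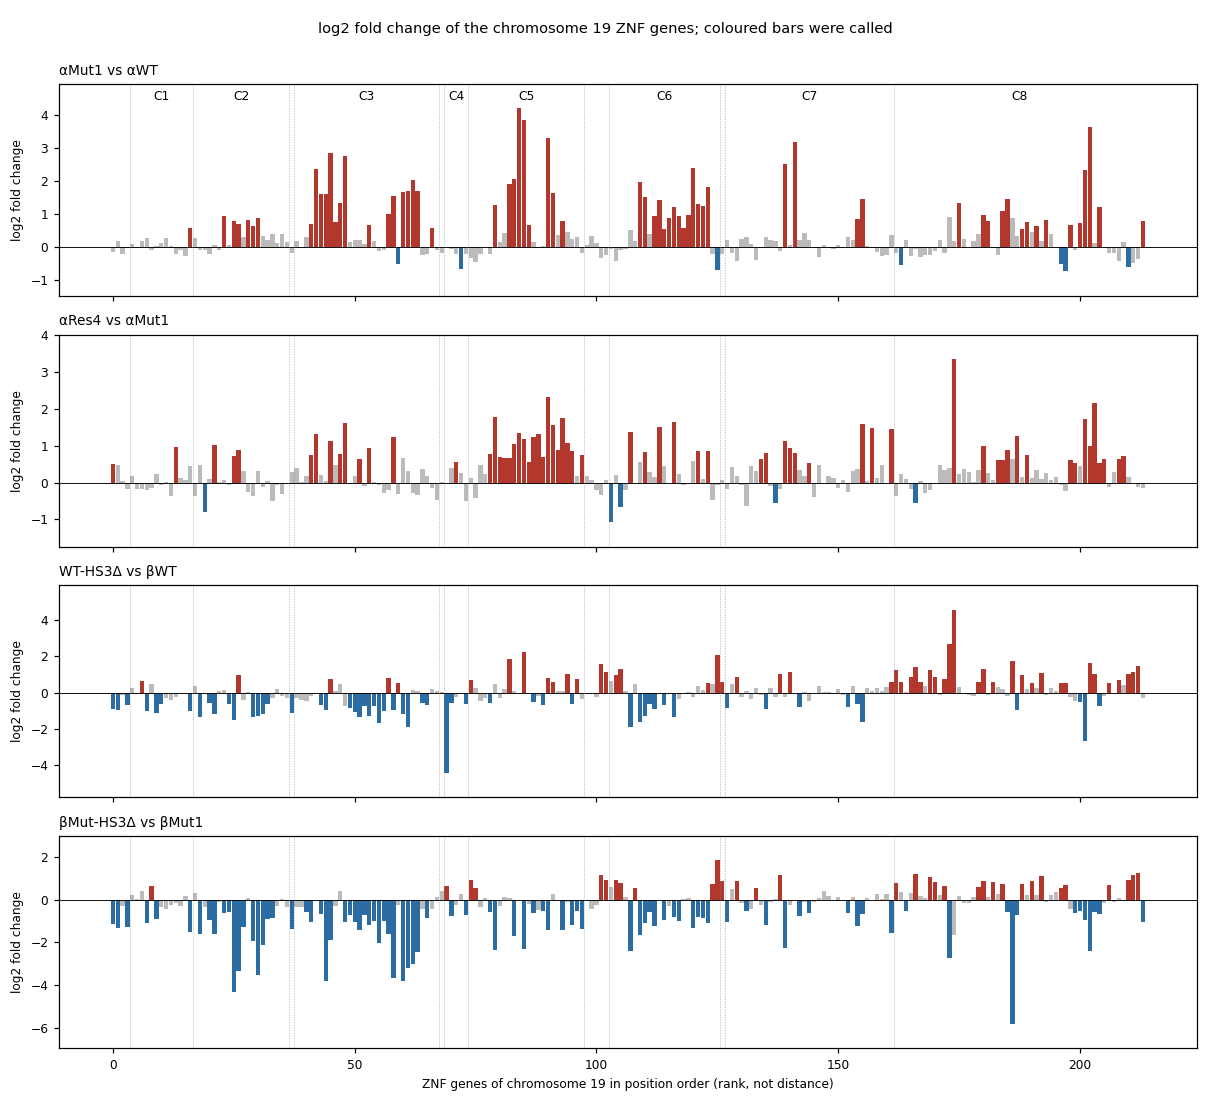
Log2 fold change of each tested chromosome 19 ZNF gene in order along the chromosome (rank, not distance), for 4 comparisons; coloured bars are called genes (red higher, blue lower), grey bars are not called, and dotted lines bound the arrays C1 to C8. The bars of ZNF genes with at most 3 counts in 1 group have no reliable length, and called genes of 1 direction stand side by side, as in C5 for αRes4 against αMut1 (19 higher, 0 lower) and C3 for βMut-HS3Δ against βMut1 (0 higher, 21 lower).

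The restored lines were compared with αMut1, their parent. For αRes3 and αRes4, the line and the difference in chromosome Y reads given above cannot be told apart. αRes1 had 0 ZNF genes higher and 15 lower of 213, against 0.4% and 2.56% of all genes, but this is the comparison in which both labels hold unlike sets. Set by set, αRes1 1–4 against αMut1 5–7, the pair that resembled each other, gave 6 higher and 23 lower (5.81% and 14.8% of all genes), and αRes1 5–8 against αMut1 1–4 gave 14 and 35 (11.7% and 10.1%). Within the αRes1 label, 5–8 against 1–4 gave 24 higher and 44 lower (22.7% and 15.6%). By the labels ZNF568 fell by 1.63 ± 0.25 (adjusted p = 3.16e-05) and ZNF233, in C6, fell by 1.45 ± 0.24 (adjusted p = 8.06e-05).

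αRes2 had 3 ZNF genes higher and 24 lower than αMut1, against 2.72% and 6.24% of all genes. Against αMut1 1–4 alone the counts were 11 and 31 (8.29% and 12.6% of all genes), and against αMut1 5–7 9 and 26 (7.54% and 8.06%). The falls were led by ZNF730 (-3.55 ± 0.54, adjusted p = 6.42e-06) and ZNF724 (-2.49 ± 0.28, adjusted p = 2.01e-08), the C3 neighbours shown above, whose αRes2 means were 0.302 ± 0.165 and 0.864 ± 0.438 CPM (SD, n = 8). ZNF257, in the same array, rose by 0.98 ± 0.18 (adjusted p = 0.000118), from 9.77 ± 4.6 CPM (n = 7) to 19 ± 2.09 CPM (n = 8), but its value over libraries 1 to 4 alone, 0.42, was not called. ZNF90, also in C3, rose by 0.67 ± 0.13 (adjusted p = 0.000264), and its value against αMut1 1–4 alone, 0.43, was not called. Within αRes2, 5–8 against 1–4 gave 10 higher and 7 lower (6.52% and 8.71% of all genes).

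αRes3 had 31 ZNF genes higher and 5 lower, against 9.69% and 10.9% of all genes, with 9 of the 31 in C3 (median 0.35) and 8 in C8. ZNF85, a C3 gene, was at 8.14 to 9.11 CPM in αRes3 and 1.17 to 3.62 CPM in αMut1, a rise of 1.84 ± 0.31 (adjusted p = 1.24e-05), after a rise of 2.76 ± 0.31 from αWT to αMut1 (adjusted p = 1.69e-09). ZNF682 rose by 1.81 ± 0.38 (adjusted p = 0.000205), to 2.87, 2.44, 2.21 and 2.52 CPM, and ZNF350, in C7, fell by 1.51 ± 0.34 (adjusted p = 0.000664). ZNF823, in C2, fell by 0.61 ± 0.16 (adjusted p = 0.00219), and its value against αMut1 5–7 alone, -0.29, was not called. Against αMut1 1–4 alone 41 were higher and 9 lower, beside 15.6% and 16.0% of all genes. Against αMut1 5–7 the counts were 38 and 10, beside 14.1% and 12.7% of all genes.

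αRes4 had 64 ZNF genes higher and 5 lower than αMut1, against 18.5% and 14% of all genes, with a median of 0.22. The ZNF genes of other chromosomes had 47 higher and 23 lower of 226, and the other genes of chromosome 19 had 99 and 90 of 799. C5 held the most: 19 of its 24 rose and none fell (median 0.81), 18 of them in an unbroken row from ZNF529 to ZNF571. Against αMut1 1–4 alone 17 of the 24 rose (22.7% of all genes) and against αMut1 5–7 19 (23.1%), with longest rows of 9 and 14. C8 added 16 higher and 1 lower, C7 9 and 1, C3 8 and 0. ZNF428, in C6, fell by 0.67 ± 0.11 (adjusted p = 2.41e-06) and ZNF784, in C8, by 0.55 ± 0.10 (adjusted p = 3.64e-05). The value of ZNF784 against αMut1 1–4 alone was -0.48 and that with the replicate number as a block -0.48, neither of them called.

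Libraries of a single label also differed by array. Between αMut1 5–7 and 1–4, 30 ZNF genes were higher and 24 lower (13.7% and 15.4% of all genes): C8 had 19 higher and 2 lower, C3 2 and 9, and C2 0 and 5. ZNF677, in C7, was at 0.236, 0.313 and 0.319 CPM in αMut1 5–7 and from 2.69 to 3.72 CPM in 1–4 (difference -3.45 ± 0.26, adjusted p = 5.20e-15). Between αWT 5–8 and 1–4, whose sets were alike in profile, 29 were higher and 11 lower (15.6% and 9.99% of all genes), with C8 again at 12 and 0 and C3 at 3 and 7. ZNF671, in C8, rose by 1.05 ± 0.12 from 2.03 to 2.86 CPM in αWT 1–4 to 4.69 to 6.38 CPM in 5–8 (adjusted p = 8.17e-10). ZNF331, the last gene of C7 and one often silenced by promoter methylation in tumours, rose by 0.84 ± 0.21 (adjusted p = 0.000765), and ZNF93, which represses L1 elements, and ZNF43, both in C3, each fell by 0.74 ± 0.08 (adjusted p = 1.80e-09 and 7.69e-10).

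In the β series the HS2 G4 mutants had the fewest calls. βMut1 had 19 ZNF genes higher and 17 lower of 210, against 13% and 7.28% of all 17535 genes. C5 (1 higher, 7 lower) and C3 (2 and 6) held most of the falls, with 6 in a row from ZNF208 to ZNF91. C7 had 5 higher and 1 lower, C6 4 and 0 and C8 3 and 3. ZNF91 fell by 1.55 ± 0.12 in βMut1 (adjusted p = 1.24e-08), from 6.75 ± 0.14 to 2.23 ± 0.35 CPM (SD, n = 4 each). βMut2 had 10 higher and 31 lower, against 15% and 13.7%, with 11 of the falls in C3, 6 of them in a row from ZNF43 to ZNF724, and 7 in C8. There ZNF91 did not pass the test (0.14 ± 0.10, adjusted p = 0.26).

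Both clones carry the same edit, yet ZNF331 went apart in them. It stood at 2.05 ± 0.30 CPM in βWT, rose by 2.25 ± 0.21 in βMut1 to 9.42 ± 2.07 CPM (adjusted p = 3.05e-07) and fell by 2.23 ± 0.31 in βMut2 to 0.422 ± 0.244 CPM (adjusted p = 1.08e-05; SD, n = 4 each). The groups did not overlap: 6.55 to 11.5 CPM in βMut1, 1.79 to 2.34 in βWT and 0.156 to 0.655 in βMut2. In βMut2 ZNF486 also fell, by 1.89 ± 0.12 (adjusted p = 5.86e-10), whereas it had risen in αMut2, and ZNF234, in C6, and ZNF254, in C3, rose by 0.87 ± 0.12 (adjusted p = 1.49e-05) and 0.66 ± 0.10 (adjusted p = 3.29e-05).

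Deleting HS3 went with the most calls. In WT-HS3Δ 49 ZNF genes rose and 56 fell of 210, against 22.8% and 27.5% of all genes. Calls leaned to higher in C8 and to lower in C2, C3 and C4, and were mixed in C5, C6 and C7. C8 had 26 higher and 4 lower (median 0.46), while its 17 tested neighbours of other kinds had 8 and 3 (median 0.20). C3 had 3 higher and 15 lower (median -0.69), C2 1 and 9 (median -0.35), C4 0 and 3, C6 4 and 7, C7 4 and 6 and C5 7 and 4. Other genes of chromosome 19 were higher more often than lower (303 and 180 of 780). ZNF429, in C3, fell from 42.9 to 51.3 CPM in βWT to 13.8 to 15.1 CPM, by 1.70 ± 0.13 (adjusted p = 7.30e-10), within a row of 8 that fell from ZNF430 to ZNF100. ZNF730 fell by 1.88 ± 0.29 (adjusted p = 1.19e-05).

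In βMut-HS3Δ against βMut1, 33 ZNF genes rose and 88 fell of 210, against 23.1% and 29.8% of all genes, with a median of -0.31. C3 had 0 higher and 21 lower (median -1.01), with 11 in a row from ZNF85 to ZNF208, C2 0 and 13 (median -0.87), C6 5 and 12 (median -0.69), C5 2 and 11 and C7 3 and 10. C8 again had more higher than lower (18 and 12), and 6 of its 12 falls stood in a row from ZNF587 to ZNF329. The other genes of the chromosome had 249 higher and 212 lower of 780, and the ZNF genes of other chromosomes 46 and 63 of 216. ZNF433, in C2, went from 6.39 to 9.22 CPM in βMut1 to 0.286, 0.418 and 0.539 CPM, and fell by 4.32 ± 0.24 (adjusted p = 9.01e-12). ZNF486 fell by 3.80 ± 0.17, to 0.446, 0.5 and 0.634 CPM (adjusted p = 5.72e-13), and ZNF91 by 2.46 ± 0.18, to 0.322, 0.349 and 0.529 CPM (adjusted p = 5.98e-10). ZNF296 rose by 1.82 ± 0.16 (adjusted p = 4.63e-09) and ZNF324, near the end of C8, by 1.23 ± 0.13 (adjusted p = 8.38e-08).

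The change from parent to HS3-deleted line was tested for a difference between its 2 backgrounds. Each group is 1 line, so the deletion, the HS2 G4 edit and the line cannot be told apart here. The interaction was past the threshold for 3 ZNF genes in the positive direction and 42 in the negative one of 210 (5.18% and 6.88% of all genes), with a median of -0.14. C3 and C5 each had 9 of the negative ones and C2 and C8 7 each. ZNF549 had the interaction of the greatest size among the 11 switched genes (-7.54 ± 0.46, adjusted p = 6.26e-10), and ZNF302 the only positive one among those past the threshold (5.08 ± 0.87, adjusted p = 0.000359), although each rests on 1 count in 1 of its groups, so that its size depends on the prior count of the fit. Over sets, WT-HS3Δ and βMut-HS3Δ had r = 0.34 for the ZNF genes and r = 0.75 for the other 17950 genes.

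The unedited lines of the series, αWT and βWT, also differed. Over the 8 libraries of αWT and the 4 of βWT, 29 ZNF genes were higher in αWT and 71 lower of 206, against 25% and 23.1% of all 18196 genes, with a median of -0.31. ZNF genes of other chromosomes had 62 and 37 of 219. C3 had 1 higher and 13 lower, C2 0 and 12, C5 1 and 11 and C8 15 and 10. ZNF296 was higher in αWT by 1.67 ± 0.14 (adjusted p = 9.52e-08) and ZNF574, outside the arrays, by 1.40 ± 0.11 (adjusted p = 9.29e-08), and ZNF677 and ZNF433 were lower, with values of -1.61 ± 0.16 (adjusted p = 5.73e-07) and -1.53 ± 0.11 (adjusted p = 3.41e-08). Series and line cannot be told apart in this comparison.

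ZNF genes that lie close together had the more similar profiles over the 16 sets, as a description across pairs that share libraries. The median r was 0.46 for the 380 pairs of 1 array within 100 kb (27.6% over 0.7), 0.24 for 1816 pairs from 100 kb to 1 Mb (11.4%), 0.17 for 967 pairs further apart in 1 array (7.03%) and 0.09 for the 19628 pairs in different arrays or with a gene outside the arrays (5.71%). Likeness was not limited to neighbours: ZNF875 was most like its neighbour ZNF527 (r = 0.95), but ZNF256, in C8, was most like ZNF737, in another array (r = 0.96), and the highest r of ZNF302 with any gene was 0.71. Overlapping neighbours can also share reads.

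The better-studied genes of the family were taken as a list: the retroelement repressors ZNF91, ZNF93 and ZNF649, ZNF274, which binds ZNF 3′ exons, ZNF331, known for promoter methylation in tumours, ZNF808, needed for pancreas development, and others, of which 14 were tested, by the labels. In βMut-HS3Δ 1 rose and 10 fell (median -0.996), where 23.1% of all genes rose and 29.8% fell. In αWT against βWT 1 was higher and 5 lower (25% and 23.1% of all genes), and in αMut1 5 rose and none fell (15.4% and 7.35% of all genes). αRes4 had 4 higher and 0 lower (18.5% and 14% of all genes) and αRes3 2 and 0 (9.69% and 10.9%). αRes2 had 0 and 2 (2.72% and 6.24%) and αRes1 0 and 0 (0.4% and 2.56%). αMut2 had 2 and 2 (6.62% and 9.43% of all genes) and βMut1 1 and 1 (13% and 7.28%). βMut2 had 1 and 2 (15% and 13.7%) and WT-HS3Δ 3 and 5 (22.8% and 27.5%). Inside the unedited αWT, libraries 5–8 against 1–4 had 4 higher and 4 lower (15.6% and 9.99% of all genes). Inside αMut1, libraries 5–7 against 1–4 had 1 and 5 (13.7% and 15.4%).

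The proteins that KRAB boxes work through are coded elsewhere, and 24 such genes (KAP1, SETDB1, HP1, NuRD and HUSH components and DNA methylation enzymes) were tested in each comparison. TRIM28, the KRAB corepressor itself, rose by 1.22 ± 0.14 in WT-HS3Δ (adjusted p = 4.32e-07) and by 1.00 ± 0.15 in βMut-HS3Δ (adjusted p = 1.09e-05). UHRF1, which targets DNMT1 to replicating DNA, rose by 1.77 ± 0.20 (adjusted p = 2.41e-07) and 2.08 ± 0.22 (adjusted p = 7.23e-08), and the de novo methyltransferase gene DNMT3A fell by 1.45 ± 0.13 (adjusted p = 5.93e-09) and 0.78 ± 0.14 (adjusted p = 4.81e-05). By the labels, 6 of the 24 rose and 3 fell in WT-HS3Δ, where 22.8% of all genes rose and 27.5% fell, so the share that rose was near that of all genes. In βMut-HS3Δ 9 rose and 2 fell (23.1% and 29.8% of all genes). In αRes4, the line with most ZNF genes on, none rose and 7 fell (18.5% and 14% of all genes), among them ATRX (-0.87 ± 0.15, adjusted p = 6.89e-06), CBX1 (-0.76 ± 0.11, adjusted p = 5.70e-07), CBX5 (-0.67 ± 0.09, adjusted p = 5.16e-08) and ATF7IP (-0.74 ± 0.13, adjusted p = 1.45e-05), the last of which had risen by 0.70 ± 0.11 in αMut1 (adjusted p = 1.01e-06). The other comparisons follow, with the shares of all genes in parentheses. αMut1 had 2 higher and 0 lower (15.4% and 7.35%), αMut2 1 and 0 (6.62% and 9.43%) and αRes1 0 and 0 (0.4% and 2.56%). αRes2 had 0 and 1 (2.72% and 6.24%) and αRes3 2 and 1 (9.69% and 10.9%). βMut1 had 0 and 4 (13% and 7.28%), βMut2 0 and 5 (15% and 13.7%) and αWT against βWT 8 and 1 (25% and 23.1%). Inside αWT, libraries 5–8 against 1–4 had 0 and 3 (15.6% and 9.99%). Inside αMut1, libraries 5–7 against 1–4 had 2 and 1 (13.7% and 15.4%). The part of these genes in the ZNF levels was not tested.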

How the data were processed

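RNA-seq was analysed for 62 libraries of K562 lines, 43 of the α series and 19 of the β series. The deposited tables hold raw counts per gene and library. According to the study's methods and the submitters' processing notes, poly(A) RNA was sequenced in pairs, trimmed with cutadapt, aligned with BWA to hg38, handled with SAMtools 1.15.1 and counted by the authors with featureCounts on GENCODE genes; R 4.3.0 is listed too. Settings for strand and for reads with several alignments are not given in the sources used here. Gene names, types and positions came from GENCODE 44, which held 62625 of the 62696 identifiers. No value column was left unmatched to a sample (0 columns).

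Counts were fitted in R 4.3.3 with edgeR 4.0.16 (quasi-likelihood test, TMM scaling, genes with a mean of at least 10 counts, Benjamini-Hochberg adjustment over all genes tested), with 1 fit for the α series, 1 for the β series and 1 for αWT against βWT. A gene was called at an adjusted p under 0.05 and a log2 fold change beyond 0.5 in size. The count minimum left 213 of the chromosome 19 ZNF genes in the α fit, 210 in the β fit and 206 in that of αWT against βWT. DESeq2 1.42.0 served as an alternative. Comparisons that divide a line into libraries 1 to 4 and 5 and above, other than those inside αWT and αMut1, were chosen after seeing the data. Genes and lists were chosen with earlier results of these data known.

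Genes named in the text are every switched gene, up to 2 called genes with the largest rise and 2 with the largest fall per comparison (levels not overlapping, higher group at least 1 CPM on average), a list of well-studied members and a list of cofactors. Genes that end a row of neighbours, and those most like a switched gene, are named for position or likeness. The fits were tested on simulated data with known changes. No libraries were closer than sampling noise allows.

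Same-numbered libraries deviated together, with every pair above r = 0.1, in αRes2 against αMut1 (0.115 to 0.312), βMut2 against βWT (0.134 to 0.585) and βMut-HS3Δ against βMut1 (0.157 to 0.694). There the pairing comes from the data and not from the labels.

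Some marker genes are not reported here.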

Additional observations from a re-analysis of the deposited data

Results flagged for a closer look

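Among the 11 switched genes and ZNF682, which switched only by set, 131 groups of 4 to 8 libraries were examined for a library far from the others, and 17 had one. The cutoff would pass about 1 in 20 groups, or 6.55, if values were normally distributed. Counts near 0 are not, and a group with reads in 1 library alone always passes. The 17 can therefore not be set against the 6.55. ZNF208 was high in αWT 8 (3.58 CPM, nearest other 2.39) and low in βWT 3 (2.75, nearest 3.16), ZNF728 high in βWT 2 (1.44, nearest 1.13) and ZNF724 low in αRes3 2 (3.17, nearest 4). ZNF875 was low in αRes4 1 (34.8, nearest 38.8) and in βMut2 4 (0.188, nearest 0.655), and ZNF578 high in βMut2 3 (0.35, nearest 0.113). ZNF549 was low in WT-HS3Δ 3 (5.46, nearest 6.39) and ZNF256 high in αRes3 4 (5.86, nearest 5.5). ZNF71 was high in αRes2 3 (0.242, nearest 0.0959), and ZNF835 low in βWT 4 (0.0754, nearest 0.157). The others were single libraries with a read or so where the rest of the group had 0: ZNF302 in αMut2 4 (0.0249 CPM), αRes2 4 (0.0959) and WT-HS3Δ 2 (0.0314), ZNF71 in αMut2 2 (0.0352) and αRes3 2 (0.0519), and ZNF835 in βMut1 3 (0.0363).

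An effect differed between 2 groups in 16 of 21 tests on the switched genes and ZNF682 (edgeR quasi-likelihood test, Benjamini-Hochberg adjustment over all genes). These genes were chosen for on and off states in the same libraries, which favours such differences, so 16 of 21 does not measure their frequency. Among all genes, the difference between αMut1 sets was called for 12.2% in the positive direction and 17.0% in the negative one. That between the backgrounds of the HS3 deletion was called for 5.18% and 6.88%. Calls also required the fold change limit given above. The change from αWT to αMut1 differed between the sets 5 and above and 1–4 for ZNF208 (-4.36 ± 0.33, adjusted p = 3.17e-14), ZNF728 (-0.978, adjusted p = 0.00146), ZNF730 (1.81, adjusted p = 7.21e-08), ZNF724 (0.73, adjusted p = 0.0266) and ZNF875 (-1.07, adjusted p = 5.13e-05). It differed likewise for ZNF578 (-2.05, adjusted p = 0.00143), ZNF71 (6.19, adjusted p = 8.66e-15), ZNF835 (-4.65, adjusted p = 6.36e-07) and ZNF549 (3.7, adjusted p = 6.96e-12), all on the log2 scale. The change on HS3 deletion differed between βMut1 and the unedited background for ZNF208 (-2.74, adjusted p = 2.64e-05), ZNF724 (-3.14, adjusted p = 0.000226), ZNF302 (5.08, adjusted p = 0.000359) and ZNF875 (-2.18, adjusted p = 0.0235). It did so also for ZNF71 (-5.43, adjusted p = 0.000106), ZNF549 (-7.54, adjusted p = 6.26e-10) and ZNF256 (-4.04, adjusted p = 1.76e-06). Where a group had 3 counts or fewer in all, as ZNF724, ZNF302, ZNF71 and ZNF549 did after the deletion, the size depends on the prior count of the fit.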

How the results depend on the processing

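The counts of called ZNF genes stayed within 1.5 times in all 13 comparisons under DESeq2 size factors, under the DESeq2 test and with no filter on low counts. With the replicate number as a block they did so in 11 of 11, with 72 in αMut1, 28 in αRes2, 41 in βMut2 and 121 in βMut-HS3Δ, and 7 of 215 named values lost their call under the block. Leaving out 1 library at a time gave 31 to 33 (αMut2), 29 to 35 (αRes3), 66 to 69 (αRes4), 52 to 62 (αMut1 sets), 33 to 43 (αWT sets), 31 to 41 (βMut1), 38 to 48 (βMut2), 99 to 107 (WT-HS3Δ), 114 to 120 (βMut-HS3Δ), 92 to 108 (αWT against βWT) and 5 to 7 and 9 to 11 switched genes (α and β series). Requiring a log2 fold change beyond 1 left 35 (αMut1), 20 (αMut2), 7 (αRes1), 12 (αRes2), 10 (αRes3), 27 (αRes4), 18 (αMut1 sets), 7 (αWT sets), 15 (βMut1), 17 (βMut2), 47 (WT-HS3Δ), 60 (βMut-HS3Δ) and 31 (αWT against βWT). αRes1 against αMut1 gave 50 with numbers 1 to 4 only and, by sets chosen after seeing the data, 29 (1–4 against 5–7), 49 (5–8 against 1–4), 55 (1–4 against 1–4) and 58 (5–8 against 5–7), and αRes2 gave 42 against αMut1 1–4. Switched genes numbered 12 in the α series with off below 0.2 CPM, 3 with off below 0.05 and 3 with on at 2 CPM, and in the β series 6 with off below 0.05 and 5 with on at 2 CPM. A gap of 2 Mb gave 5 arrays.

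Signs turned with the αMut1 sets or the replicate numbers: in αMut1 5–7 against αWT 5–8, ZNF208 (-2.02) and ZNF677 (-1.29); in αRes1 5–8 against αMut1 5–7, ZNF677 (1.34); in αRes2 against αMut1 5–7, ZNF43 (0.0909) and ZNF835 (0.209), against αMut1 1–4, ZNF71 (0.344), and with numbers 1 to 4 only, ZNF71 (0.606) and ZNF549 (0.324). The shallowest library held 4270215 counts, so 1 read there is worth more than the limit for off, and single reads decide levels near 0.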
